A study of Mus musculus with 12 samples.

Results

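The genes described here are 32 genes of oligodendrocytes and their progenitors, taken by symbol from a list that runs from the proteins of compact myelin to the receptors of the progenitor stage, out of the 55421 genes in the count tables. The hippocampus of 12 mice was profiled by sequencing of polyadenylated RNA, with 1 library a mouse and 3 mice a group. WT-Veh and WT-Nut3 were wild-type mice, and KO-Veh and KO-Nut3 were Fmr1-KO mice, in which the gene that is silenced in fragile X syndrome is disrupted. Intraperitoneal vehicle (Veh) or Nutlin-3 (Nut3), a small molecule that keeps MDM2 from binding p53, was given at 2 months of age, and the hippocampus was taken at 6 months. The methods place all mice on a C57BL/6 background, with male Fmr1-/y knockouts and a Nestin-GFP reporter in the main cross, and the labels do not say which of the sequenced mice carried the reporter. Each mouse carried a number (RH1 to RH16, with gaps), and values below follow the order RH2, RH5 and RH15 for WT-Veh, RH1, RH9 and RH14 for WT-Nut3, RH7, RH10 and RH16 for KO-Veh, and RH6, RH8 and RH13 for KO-Nut3. The comparisons ask whether these genes differed between genotypes and whether a brief treatment months earlier was followed by a difference in either.

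Oligodendrocytes wrap axons in myelin, a stack of membrane that is rich in cholesterol and galactolipids and is held together by a small set of abundant proteins. They arise from progenitors that carry the PDGF receptor Pdgfra and the proteoglycan Cspg4 (NG2), pass through a short premyelinating stage marked by Gpr17 and Bcas1, and then switch on the myelin genes under Sox10, Olig2 and Myrf. In the adult hippocampus, myelin lies mostly in the alveus and fimbria and along the perforant path, and progenitors are spread through all layers.

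All 32 genes had reads in every library, the lowest being 40 reads of Pllp in KO-Nut3 RH13, and all 32 passed the filter of more than 20 reads over the 12 libraries that left 22592 genes for testing. Each library had between 17150820 and 20040482 reads on genes. The targeted gene followed the labels. Fmr1, in counts relative to the library total and scaled with TMM factors (CPM), was measured at 79.5, 75.3 and 77.7 CPM in WT-Veh, 75.2, 73.97 and 78.3 in WT-Nut3, 32.7, 32.5 and 37.3 in KO-Veh, and 30.6, 28.5 and 35.7 in KO-Nut3, so every knockout library lay below every wild-type library. Because the tissue is a mixture, fewer cells of a type and less RNA per cell cannot be told apart in any value below.

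Mbp, which encodes myelin basic protein, the protein that seals the cytoplasmic faces of the myelin membrane, was the most abundant member. The gene lies at chr18:82475146-82585637 on the plus strand (mm10). Its mean level over the 12 libraries was 281 CPM per kb of exon, and 99.7% of the genes tested lay below it. Mbp was measured at 1798, 2059 and 2514 CPM in WT-Veh and 2752, 2089 and 2774 in WT-Nut3. Mbp had 2333, 2120.2 and 2331 CPM in KO-Veh and 2874, 2450.4 and 2446 in KO-Nut3. WT-Veh RH2 was the lowest of the 12 libraries and KO-Nut3 RH6 the highest, and the 3 KO-Nut3 libraries lay above the 3 KO-Veh libraries while the wild-type groups overlapped.

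Mobp, a basic protein of the myelin sheath, came next at 100.1 CPM per kb, and it lay below Mbp and above the next member in all 12 libraries. Mobp was measured at 441, 533 and 871 CPM in WT-Veh and 703, 593 and 807 in WT-Nut3. Mobp had 647, 572 and 845 CPM in KO-Veh and 833, 682 and 698 in KO-Nut3. Here the highest library was WT-Veh RH15, a vehicle library, and all groups overlapped. The other members of compact myelin were Mal, a proteolipid that sorts myelin cargo, at 70.4 CPM per kb, and Pllp (plasmolipin), at 1.43 CPM per kb. The level of Pllp is uncertain, since 54.2% of its exonic length is shared with Gm45767 on the other strand and only 5.89% of the reads found when each strand was counted alone were kept in the counts used.

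Among the proteins of the outer and adaxonal myelin surface, Cldn11, which forms the tight junctions of the sheath, had 65.4 CPM per kb, Mag, the adhesion molecule of the innermost turn, 36.5, and Mog, an immunoglobulin-like protein of the outermost turn, 28.3. Mog was measured at 30.7, 40.3 and 55.6 CPM in WT-Veh and 50.3, 45.7 and 52.8 in WT-Nut3. Mog had 49.6, 42.00 and 49.2 CPM in KO-Veh and 61.7, 52.01 and 49.5 in KO-Nut3. Mag was measured at 111, 134 and 140.3 CPM in WT-Veh and 177, 127 and 172 in WT-Nut3. Mag had 150.3, 121 and 147 CPM in KO-Veh and 207, 159.9 and 138 in KO-Nut3. For both genes WT-Veh RH2 was the lowest library and KO-Nut3 RH6 the highest, and all 4 groups overlapped. Cldn11 was measured at 81.8, 103 and 137 CPM in WT-Veh and 138, 111 and 153 in WT-Nut3. Cldn11 had 117, 102 and 120.2 CPM in KO-Veh and 147, 130.1 and 129 in KO-Nut3, which placed the 3 KO-Nut3 libraries above the 3 KO-Veh libraries. Opalin, a glycoprotein found in central myelin, had 7.29 CPM per kb and was measured at 16.5, 20.7 and 22.2 CPM in WT-Veh and 29.4, 21.2 and 19.7 in WT-Nut3. Opalin had 18.8, 17.1 and 21.8 CPM in KO-Veh and 29.6, 22.3 and 18.5 in KO-Nut3, with WT-Nut3 RH1 and KO-Nut3 RH6 standing above the rest. Tspan2, a tetraspanin of the lineage, had 22.4 CPM per kb, Ermn, a cytoskeletal protein of late oligodendrocytes, 14.8, and Hapln2, a link protein of the matrix at nodes of Ranvier, 14.6.

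Of the enzymes, Cnp, a phosphodiesterase that keeps cytoplasmic channels open in the sheath, had 76.8 CPM per kb and was measured at 214, 251 and 280.2 CPM in WT-Veh and 329, 259 and 299.9 in WT-Nut3. Cnp had 278, 238 and 283 CPM in KO-Veh and 355, 305 and 261 in KO-Nut3. WT-Veh RH2 was again lowest and KO-Nut3 RH6 highest. Car2 (chr3:14886273-14900770, plus strand), the carbonic anhydrase of oligodendrocytes and also of choroid plexus epithelium, had 72.4 CPM per kb and was measured at 146, 155 and 163 CPM in WT-Veh and 185, 180.5 and 191 in WT-Nut3. Car2 had 169, 169 and 155 CPM in KO-Veh and 202, 177 and 214 in KO-Nut3. All 6 Nutlin-3 libraries lay above all 6 vehicle libraries, which held for 2 of the members, Car2 and Trf. The share of all genes that separated in this way is not given here, so this count was not set against it. Fa2h, which hydroxylates the fatty acids of galactolipids, had 11.9 CPM per kb, Ugt8a, which makes galactosylceramide, 10.6, and Aspa, which frees acetate from N-acetylaspartate for lipid synthesis, 2.81. Aspa was measured at 12.4, 15.7 and 16.2 CPM in WT-Veh and 18.4, 15.6 and 19.7 in WT-Nut3. Aspa had 16.4, 14.1 and 14.6 CPM in KO-Veh and 20.9, 19.1 and 17.6 in KO-Nut3, so its 3 KO-Nut3 libraries lay above the KO-Veh and the WT-Veh libraries. Enpp6, a choline phosphodiesterase that marks newly forming oligodendrocytes, was near the bottom of the list at 1.23 CPM per kb and was measured at 7.05, 7.04 and 5.97 CPM in WT-Veh and 10.7, 5.61 and 8.97 in WT-Nut3. Enpp6 had 8.72, 6.65 and 7.29 CPM in KO-Veh and 9.04, 10.1 and 7.36 in KO-Nut3, with the 3 KO-Nut3 libraries above the 3 WT-Veh libraries and the other groups overlapping.

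Trf, which encodes the iron carrier transferrin and is made by oligodendrocytes and choroid plexus epithelium (chr9:103204001-103230444, minus strand), was the third member by level per length, at 80.4 CPM per kb, and did not stand clear of Cnp, which it exceeded in 6 of 12 libraries. Trf was measured at 194, 219.6 and 262 CPM in WT-Veh and 296, 276 and 284 in WT-Nut3. Trf had 237, 205 and 264 CPM in KO-Veh and 370.1, 268 and 329 in KO-Nut3. As for Car2, the lowest Nutlin-3 library lay above the highest vehicle library, though by a narrow margin. The gap junction genes Gjc3 and Gjb1, through which oligodendrocytes couple to astrocytes and to their own myelin layers, had 14.98 and 7.07 CPM per kb.

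The transcription factors ranged from Olig1 at 50.5 CPM per kb, which works with Olig2 in specifying the lineage, to Nkx2-2, which acts at the onset of differentiation, at 1.13. The place of Nkx2-2 in the order is uncertain, since many of its reads were not kept in the counts used. Olig2 had 11.4 CPM per kb and was measured at 26.8, 25.7 and 34.04 CPM in WT-Veh and 33.5, 24.8 and 37.7 in WT-Nut3. Olig2 had 22.04, 24.6 and 31.05 CPM in KO-Veh and 29.3, 23.9 and 33.4 in KO-Nut3. Sox10, the factor that all later stages need, had 16.8 CPM per kb and was measured at 41.4, 50.2 and 51.9 CPM in WT-Veh and 62.99, 43.1 and 60.5 in WT-Nut3. Sox10 had 50.5, 43.4 and 47.6 CPM in KO-Veh and 60.8, 55.3 and 48.3 in KO-Nut3. All groups overlapped for both. Myrf, the membrane-bound factor that starts myelin gene expression, had 9.24 CPM per kb and was measured at 59.5, 70.7 and 81.6 CPM in WT-Veh and 90.5, 74.6 and 90.1 in WT-Nut3. Myrf had 75.8, 68.5 and 85.6 CPM in KO-Veh and 92.7, 79.7 and 79.6 in KO-Nut3, again with the lowest value in WT-Veh RH2 and the highest in KO-Nut3 RH6. Nkx6-2 (chr7:139579376-139582797, minus strand), a homeobox factor of myelinating cells, had 6.20 CPM per kb and was measured at 9.61, 9.19 and 9.89 CPM in WT-Veh and 14.8, 11.4 and 15.7 in WT-Nut3. Nkx6-2 had 11.3, 10.6 and 11.8 CPM in KO-Veh and 13.9, 11.4 and 12.1 in KO-Nut3. The 3 WT-Veh libraries of Nkx6-2 lay below the other 9. The counts used held 64.7% of the reads of Nkx6-2 and 55.1% of those of Nkx2-2 that were found when the strands were counted alone, because parts of both genes overlap a neighbor on the other strand.

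Pdgfra (chr5:75152292-75198215, plus strand), the progenitor's receptor for PDGF, had 5.68 CPM per kb and was measured at 57.8, 66.5 and 60.4 CPM in WT-Veh and 56.3, 53.1 and 55.9 in WT-Nut3. Pdgfra had 56.9, 49.8 and 56.7 CPM in KO-Veh and 51.8, 62.4 and 56.02 in KO-Nut3. Cspg4 (chr9:56865033-56899870, plus strand) had 2.33 CPM per kb and was measured at 32.7, 33.7 and 31.3 CPM in WT-Veh and 28.6, 23.7 and 29.4 in WT-Nut3. Cspg4 had 28.3, 22.5 and 27.1 CPM in KO-Veh and 24.2, 26.9 and 25.3 in KO-Nut3. The 3 WT-Veh libraries held the 3 highest values of Cspg4, and KO-Veh RH10 the lowest value of both genes. Gpr17, a receptor of the premyelinating stage, had 7.21 CPM per kb and was measured at 36.7, 35.6 and 43.3 CPM in WT-Veh and 45.5, 35.3 and 40.8 in WT-Nut3. Gpr17 had 33.7, 37.7 and 37.5 CPM in KO-Veh and 31.8, 37.00 and 34.7 in KO-Nut3. Bcas1, the other marker of that stage, had 27.2 CPM per kb and was measured at 75.2, 89.8 and 123 CPM in WT-Veh and 118, 86.9 and 111 in WT-Nut3. Bcas1 had 96.3, 79.9 and 128 CPM in KO-Veh and 132, 98.2 and 93.3 in KO-Nut3, so that it followed the myelin genes in WT-Veh RH2 and KO-Nut3 RH6, where Gpr17 did not. The counts used held 71.4% of the reads of Bcas1 and 82% of those of Gpr17 found when each strand was counted alone, so that their places in the order are uncertain. Plekhh1, a pleckstrin homology domain gene of the lineage, had 6.17 CPM per kb, and Tmem125, a membrane protein gene, 2.65. Plekhh1 was measured at 32.01, 34.6 and 35.5 CPM in WT-Veh and 47.9, 34.6 and 46.9 in WT-Nut3. Plekhh1 had 42.9, 35.5 and 43.8 CPM in KO-Veh and 56.8, 44.6 and 42.6 in KO-Nut3, with KO-Nut3 RH6 the highest and WT-Veh RH2 the lowest. Between neighbors in the order of level per length, the higher gene was above the lower in all 12 libraries at 8 of the 31 steps, and in 6 of 12 at the steps from Trf to Cnp, Opalin to Gpr17, Nkx6-2 to Plekhh1 and Enpp6 to Nkx2-2.

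**Figure D1:**
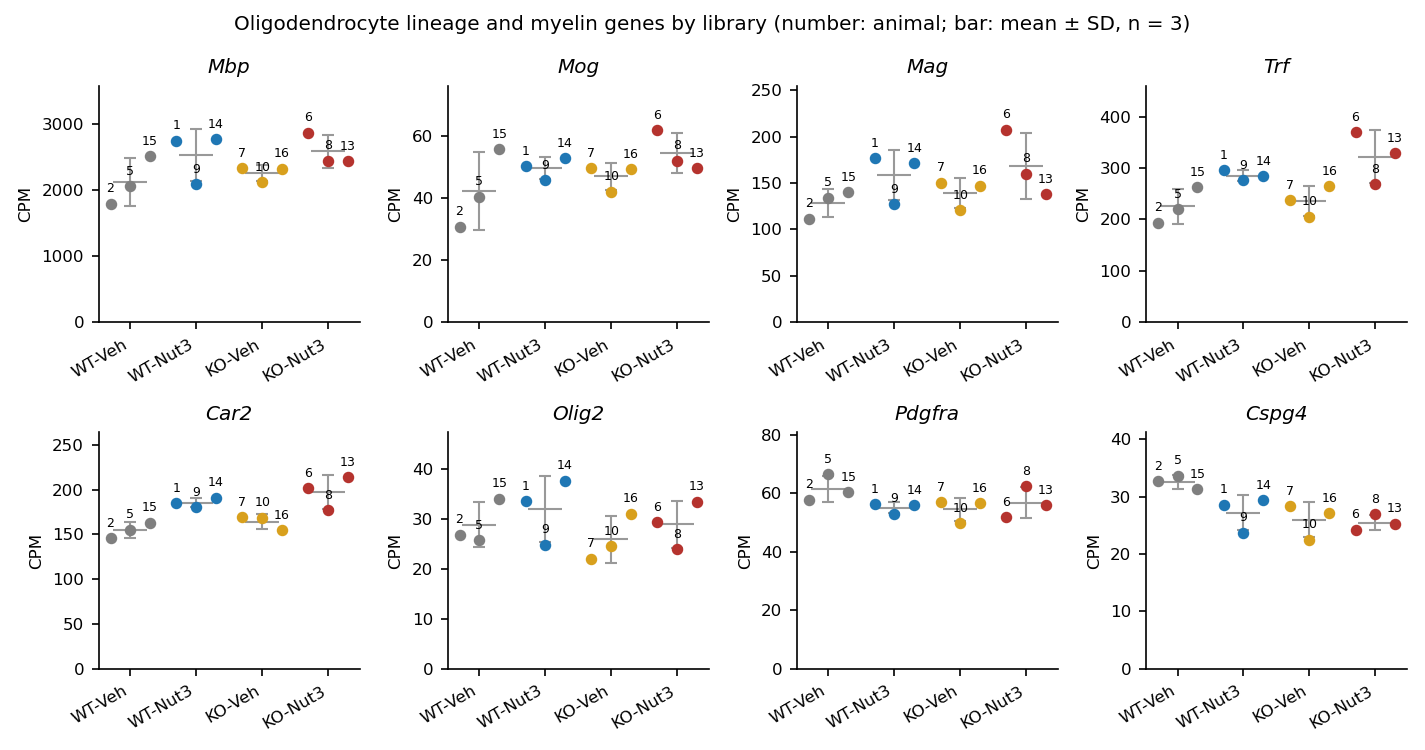
Levels in CPM (y axis, from 0) of 8 of the genes in the 4 groups (x axis), 1 point a library with the animal number beside it and the mean ± SD of 3 libraries in grey. Car2 is higher in all 6 Nutlin-3 libraries than in all 6 vehicle libraries, while Mbp, Mog and Mag spread as widely within WT-Veh and WT-Nut3 as between them.

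Most members lay high or low together in a library, also among mice of the same group. Their summed level was 3939.7, 4523 and 5679 CPM in WT-Veh, 5931, 4706 and 6051 in WT-Nut3, 5079, 4576 and 5441 in KO-Veh, and 6393, 5399 and 5419 in KO-Nut3. WT-Veh RH2 was the lowest library for 19 of the 32 members, and KO-Nut3 RH6 was the highest for 14, WT-Nut3 RH14 for 7 and WT-Nut3 RH1 for 5. WT-Veh RH15 had 21 members above their mean and WT-Nut3 RH9 had 4, and RH15, given vehicle, exceeded RH9, given Nutlin-3, in 28 of the 32. The ratio of the highest to the lowest library ran from 1.34 for Pdgfra to 2.09 for Tmem125, and it was 1.60 for Mbp and 2.01 for Mog. Because most members moved together, the counts of members in the comparisons below do not stand for that many independent genes.

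**Figure D2:**
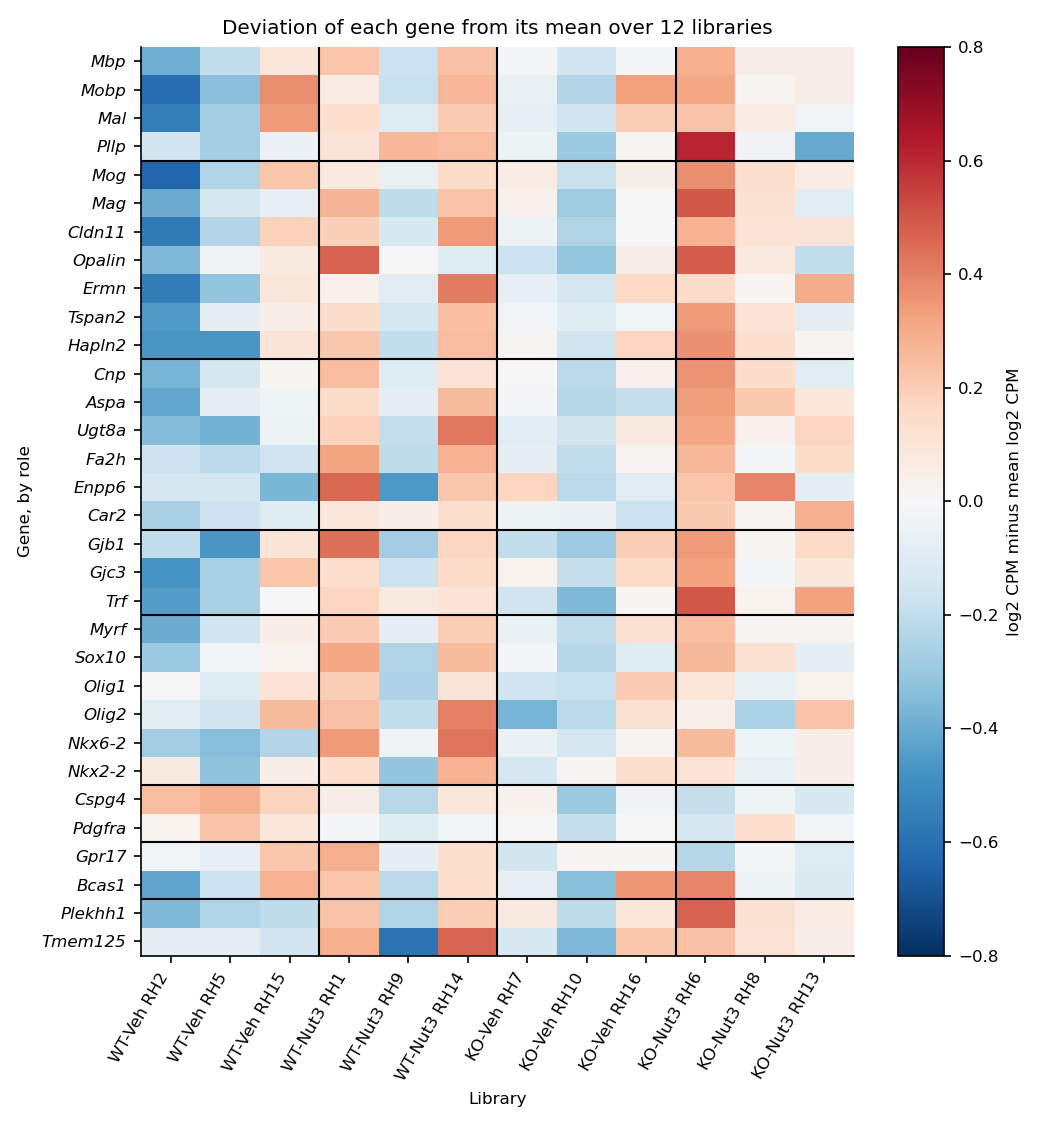
Log2 CPM of each of the 32 genes minus that gene's mean over the 12 libraries (color), with genes in rows grouped by role and libraries in columns grouped by treatment and genotype. The columns of WT-Veh RH2 and KO-Nut3 RH6 are blue and red across most myelin genes, and the Cspg4 and Pdgfra rows do not follow them.

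In the knockout, 30 of the 32 genes had a fold change above 0 for KO-Nut3 over KO-Veh. None passed the threshold of an adjusted p under 0.05 in the edgeR quasi-likelihood test, which called 0.199% of all genes tested in this comparison. Their median log2 fold change was 0.20, against 0.00 over all genes tested. Genes with an unadjusted p under 0.05 numbered 7, which were Mbp, Cldn11, Aspa, Ugt8a, Trf, Fa2h and Car2 and were all higher in KO-Nut3, against 7.6% of all genes. In 5 of them (Mbp, Cldn11, Aspa, Trf and Car2) the 3 KO-Nut3 libraries lay above the 3 KO-Veh libraries, as they did for 7.85% of all genes. Trf had the lowest p, with 322 ± 51.5 CPM in KO-Nut3 and 235 ± 29.5 in KO-Veh (mean ± SD) and a log2 fold change of 0.45 ± 0.12 (SE; unadjusted p = 0.00443, adjusted p = 0.286) in edgeR. Car2 followed with a log2 fold change of 0.26 ± 0.08 (SE; unadjusted p = 0.00643, adjusted p = 0.342) in edgeR, and Aspa with 0.35 ± 0.11 (SE; unadjusted p = 0.01, adjusted p = 0.401). Cspg4 and Gpr17 were the genes with a fold change below 0, at -0.03 and -0.07. The call of Trf depended on the test, since it passed in DESeq2 (adjusted p = 0.023), in edgeR without KO-Nut3 RH8 (adjusted p = 0.0459), and in edgeR with every gene that had at least 1 read kept (adjusted p = 0.000983). These fits called 1.28%, 1.18% and 1.51% of all genes. Over all alternatives its adjusted p ran from 0.000983 to 0.999. Without KO-Veh RH10, 3 members had an unadjusted p under 0.05, and there were 11 without KO-Veh RH16 and 12 without KO-Nut3 RH13. Here and below, the share of all genes with an unadjusted p under 0.05 is not given for fits with 1 library left out. These counts of members cannot be set against it.

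In the wild type the same direction was found without shared libraries. Of the 32 genes, 30 were higher in WT-Nut3 than in WT-Veh. Their median log2 fold change was 0.26 against 0.00 over all genes tested, and none passed in edgeR, which called 0% of all genes. With an unadjusted p under 0.05 there were 13 members, against 3.17% of all genes, and of these Mag, Cnp, Ermn, Ugt8a, Trf, Fa2h, Myrf, Nkx6-2, Car2, Hapln2 and Plekhh1 were higher while Cspg4 and Pdgfra were lower. Trf, Nkx6-2, Car2 and Pllp had all 3 WT-Nut3 libraries above the WT-Veh libraries, which 3.6% of all genes had, and Cspg4 and Pdgfra had them all below, which 3.92% had. Car2 had a log2 fold change of 0.26 ± 0.06 (SE; unadjusted p = 0.000713, adjusted p = 0.998) in edgeR, from 155 ± 8.53 to 185 ± 5.19 CPM. Nkx6-2 had a log2 fold change of 0.55 ± 0.14 (SE; unadjusted p = 0.00271, adjusted p = 0.998) in edgeR, and Trf one of 0.34 ± 0.09 (SE; unadjusted p = 0.00349, adjusted p = 0.998). The adjusted p-values near 1 belong to a comparison in which no gene passed, and they do not show that the groups were alike. When every gene with at least 1 read was kept, 13 members passed in edgeR, as did 0.693% of the 35930 genes then tested (Mag, Cnp, Cldn11, Ermn, Ugt8a, Trf, Fa2h, Myrf, Nkx6-2, Tspan2, Car2, Hapln2 and Plekhh1). In that fit the median standard error of the members was 0.0761 in place of 0.142. Its prior degrees of freedom were infinite in place of 6.92, so that each gene took its spread from the trend over all genes. The number of members with an unadjusted p under 0.05 was 7 without WT-Veh RH2, 5 without WT-Veh RH5, 4 without WT-Nut3 RH14, 7 without WT-Nut3 RH1, 22 without WT-Veh RH15 and 20 without WT-Nut3 RH9. The 3.17% of all genes belongs to the fit with every library and not to these fits.

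Fold changes above 0 in both genotypes were found for 29 of the 32 members, against 26.9% of all genes tested, and Cspg4 was the member below 0 in both. The members are not independent of each other, since most lay high or low together in a library. A few high or low libraries can therefore move many of them at once. The interaction of genotype and treatment, which asks whether the genotypes responded differently to Nutlin-3, called 0 of the 32 members and 0% of all genes in edgeR. Its lowest p among the members was that of Nkx6-2, whose fold change was smaller in the knockout, with an interaction of -0.40 ± 0.18 (SE; unadjusted p = 0.0488, adjusted p = 0.994) on the log2 scale in edgeR. Nkx6-2 was the member with an unadjusted p under 0.05, against 4.17% of all genes. With 1 library left out at a time, 1 member had one without KO-Veh RH10, WT-Veh RH15 or WT-Nut3 RH9, 2 had one without KO-Nut3 RH6, and 0 without any of the other 8. Pdgfra had an interaction of 0.22 ± 0.11 (SE; unadjusted p = 0.0707, adjusted p = 0.994) and Cspg4 one of 0.23 ± 0.14 (SE; unadjusted p = 0.125, adjusted p = 0.994) in edgeR. That of Pdgfra was 0.15 without KO-Nut3 RH8, and that of Cspg4 0.14 without KO-Veh RH10 or without WT-Nut3 RH9.

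**Figure D3:**
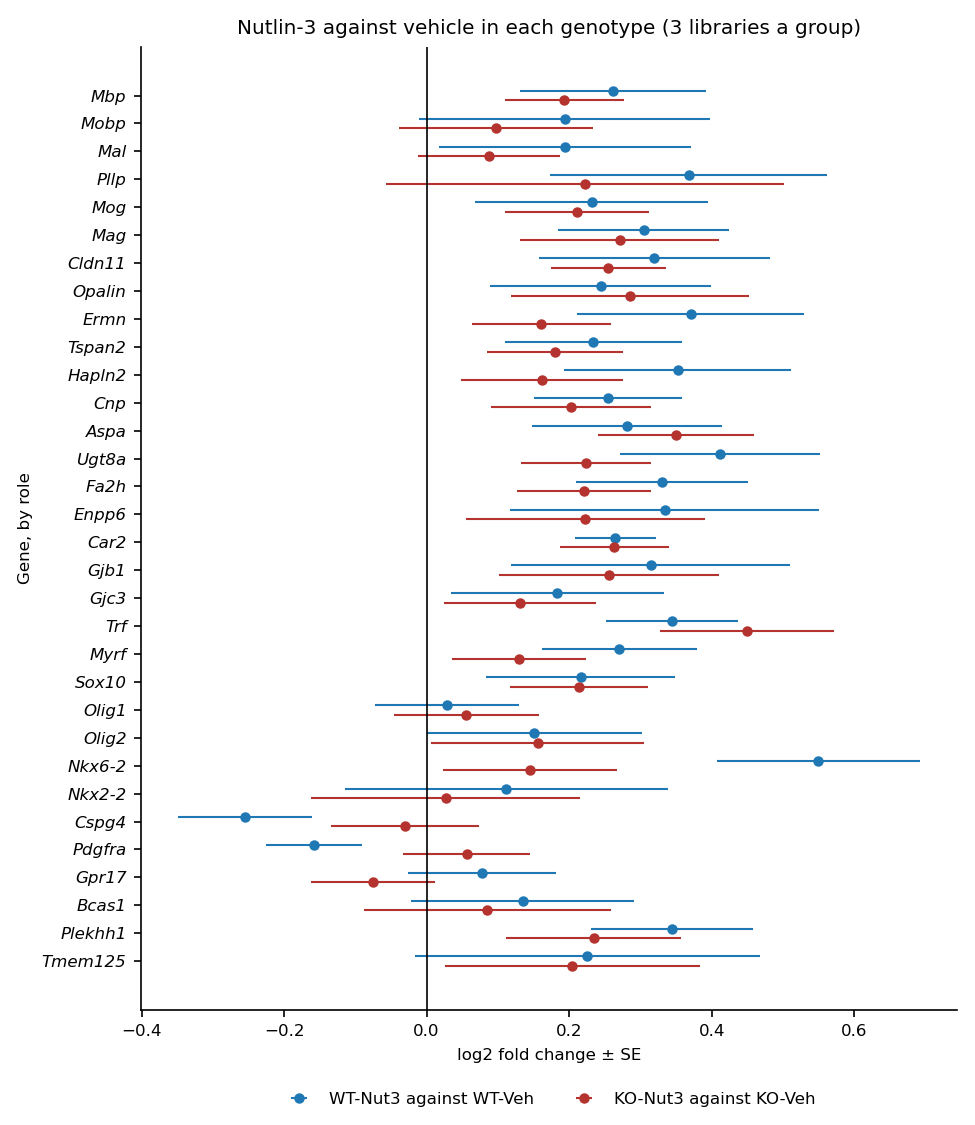
Log2 fold change ± SE (x axis) of each gene (y axis, by role) for WT-Nut3 against WT-Veh in blue and KO-Nut3 against KO-Veh in red, 3 libraries a group. Most genes lie to the right of 0 in both genotypes, Cspg4 lies to the left in both, and Nkx6-2, Cspg4 and Pdgfra are the genes whose points lie farthest apart.

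With both genotypes in one fit, all Nutlin-3 against all vehicle libraries, 30 members were higher and none passed in edgeR, which called 0% of all genes. Their median log2 fold change was 0.23, and 17 had an unadjusted p under 0.05, all of them higher, against 7.29% of all genes. By role, the median log2 fold change was 0.29 for gap junctions and iron transport, 0.28 for enzymes, 0.26 for adhesion, tight junction and paranode genes, 0.19 for compact myelin proteins and 0.18 for transcription factors. It was 0.06 for Gpr17 and Bcas1 of the differentiating stage, 0.25 for Plekhh1 and Tmem125, and -0.10 for the progenitor receptors. Car2 had a log2 fold change of 0.26 ± 0.05 (SE; unadjusted p = 5.33e-05, adjusted p = 0.155) in edgeR. Trf had 0.40 ± 0.08 (SE; unadjusted p = 0.0003, adjusted p = 0.188) and Aspa 0.32 ± 0.09 (SE; unadjusted p = 0.00218, adjusted p = 0.306) in edgeR. Car2 and Trf passed in DESeq2, with adjusted p-values of 0.000507 and 0.0055, where 0.372% of all genes passed, and over all alternatives the adjusted p of Car2 ran from 8.86e-05 to 0.99996. With every gene of at least 1 read kept, 14 members passed in edgeR, as did 1.5% of the 35930 genes then tested. The number with an unadjusted p under 0.05 ran from 11, without WT-Veh RH2, to 22, without WT-Veh RH15.

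Between genotypes under vehicle, the members with an unadjusted p under 0.05 were Cspg4, Pdgfra and Plekhh1, 3 of 32, a share near the 7.2% of all genes. None of the 32 members passed in edgeR for KO-Veh against WT-Veh, where 0.0177% of all genes did. Cspg4 was lower in KO-Veh, at 25.97 ± 3.06 CPM against 32.6 ± 1.21, with a log2 fold change of -0.32 ± 0.09 (SE; unadjusted p = 0.00355, adjusted p = 0.608) in edgeR. Pdgfra was lower too, with a log2 fold change of -0.18 ± 0.07 (SE; unadjusted p = 0.0293, adjusted p = 0.665), and Plekhh1 was higher, with 0.26 ± 0.09 (SE; unadjusted p = 0.0104, adjusted p = 0.613). Without KO-Veh RH10 the value of Pdgfra was -0.11 ± 0.08 (SE). The number of members with an unadjusted p under 0.05 was 5 without KO-Veh RH10 or without KO-Veh RH16, and 17 without WT-Veh RH15. The 7.2% of all genes belongs to the fit with every library and not to these fits. Cspg4 and Pdgfra had all KO-Veh libraries below the WT-Veh libraries, as 6.46% of all genes did, and Nkx6-2 had them above, as 5.9% did. The median log2 fold change of the members was 0.09 and 25 of 32 were higher in KO-Veh, but 16 of 32 were higher without WT-Veh RH2.

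Cspg4 is also expressed by mural cells and Pdgfra by meningeal fibroblasts, and the genes of both cell types leaned the same way. In KO-Veh against WT-Veh 8 of 9 mural genes and 9 of 10 fibroblast genes were lower, with median log2 fold changes of -0.23 and -0.67 and none past the threshold in edgeR. The summed level of 9 mural genes was 191, 263 and 201 CPM in WT-Veh, 211, 224 and 184 in WT-Nut3, 200.4, 182 and 166 in KO-Veh, and 226, 286 and 205 in KO-Nut3, and its most abundant gene, Rgs5, was measured at 94.2, 101 and 88.1 CPM in WT-Veh, 98.3, 95.03 and 89.6 in WT-Nut3, 93.2, 88.01 and 76.7 in KO-Veh, and 88.9, 106 and 96.3 in KO-Nut3. The summed level of 10 fibroblast genes was 81.2, 189 and 102 CPM in WT-Veh, 90.2, 109 and 59.3 in WT-Nut3, 95.1, 98.9 and 105 in KO-Veh, and 125, 242 and 109 in KO-Nut3. Tagln, a mural gene, was at 0 in WT-Nut3 RH9, KO-Veh RH10 and KO-Nut3 RH13. WT-Veh RH5, the highest library for Cspg4 and Pdgfra, was the second highest in both lists. The lean of the fibroblast genes rested largely on RH5. The sums of WT-Veh RH2 and RH15, 81.2 and 102 CPM, did not exceed the highest KO-Veh sum, 105 CPM. KO-Nut3 RH8, the highest in both lists, had 62.4 CPM of Pdgfra, second to WT-Veh RH5, and 26.9 CPM of Cspg4, below the 3 WT-Veh libraries. The part of these cells in the result was not tested.

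Between genotypes under Nutlin-3, the median log2 fold change of the members, KO-Nut3 over WT-Nut3, was 0.02. None of the members passed in edgeR, which called 0.00443% of all genes, and 0 had an unadjusted p under 0.05, against 4.87% of all genes, with 3 members without KO-Nut3 RH8 and 1 without WT-Nut3 RH9. The lowest p was that of Gpr17, with a log2 fold change of -0.24 ± 0.11 (SE; unadjusted p = 0.0527, adjusted p = 0.928), followed by Trf with 0.17 ± 0.11 (SE; unadjusted p = 0.143, adjusted p = 0.928) and Mog with 0.13 ± 0.10 (SE; unadjusted p = 0.222, adjusted p = 0.928) in edgeR. Gpr17 had -0.15 without WT-Nut3 RH1 and -0.10 with the choroid plexus score as a covariate. Trf had 0.06 without KO-Nut3 RH6, 0.29 without KO-Nut3 RH8 and 0.11 with that score, and Mog 0.03 without KO-Nut3 RH6, 0.07 without WT-Nut3 RH9 and 0.20 without KO-Nut3 RH13. By fold change 21 of 32 were higher in KO-Nut3, and 6 without WT-Nut3 RH9, 8 without KO-Nut3 RH6 and 11 with the animal number as a term.

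KO-Nut3 against WT-Veh shares libraries with the comparisons above and combines both differences. In it 29 of 32 members were higher, with a median log2 fold change of 0.29, and none passed in edgeR, which called 0.00443% of all genes. There were 15 members with an unadjusted p under 0.05, 14 higher and Cspg4 lower, against 9.17% of all genes. Aspa, Ugt8a, Trf, Fa2h, Nkx6-2, Enpp6, Car2, Plekhh1 and Tmem125 had all KO-Nut3 libraries above the WT-Veh libraries, as 7.92% of all genes did, and Cspg4 had them below, as 7.09% did. Car2 had a log2 fold change of 0.35 ± 0.08 (SE; unadjusted p = 0.00136, adjusted p = 0.201), Plekhh1 0.50 ± 0.11 (SE; unadjusted p = 0.00152, adjusted p = 0.213) and Cspg4 -0.35 ± 0.08 (SE; unadjusted p = 0.00193, adjusted p = 0.219) in edgeR. DESeq2 passed Car2, Trf and Plekhh1, with adjusted p-values of 0.0324, 0.0149 and 0.022, and Car2 also passed in edgeR without KO-Nut3 RH8 (adjusted p = 0.0458), fits that called 1.03% and 0.872% of all genes. Over all alternatives the adjusted p of Car2 ran from 0.0149 to 1. With the choroid plexus score as a covariate the log2 fold change of Cspg4 was -0.13 ± 0.14 (SE). The number of members with an unadjusted p under 0.05 was 7 without WT-Veh RH2 or without KO-Nut3 RH6 and 9 without WT-Veh RH5. Of the reads of Plekhh1 found on either strand, 75.7% were kept in the counts used, because its exons overlap Pigh.

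With all libraries in one fit, all KO against all WT, none of the members passed in edgeR, which called 0.00443% of all genes. Cspg4 had a log2 fold change of -0.21 ± 0.07 (SE; unadjusted p = 0.0128, adjusted p = 0.472), Plekhh1 0.21 ± 0.09 (SE; unadjusted p = 0.0385, adjusted p = 0.579) and Gpr17 -0.16 ± 0.07 (SE; unadjusted p = 0.0419, adjusted p = 0.594) in edgeR, and these were the 3 members with an unadjusted p under 0.05, against 8.16% of all genes. With the choroid plexus score as a covariate Gpr17 had -0.08 ± 0.07 (SE). There were 8 such members without WT-Veh RH15, and 1 without KO-Veh RH7 or without KO-Nut3 RH6. The median log2 fold change of the members was 0.06.

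Across libraries Mog kept step with Mobp and Mag, and Pdgfra with Cspg4, among 6 pairs of genes that were tested on log2 CPM with permutations of the 12 libraries and with p-values adjusted over the 6. Mog and Mobp had a Pearson r of 0.91 (permutation p = 6e-05, adjusted p = 0.00036) and a Spearman rho of 0.80 (permutation p = 0.0025, adjusted p = 0.0075). Mog and Mag had an r of 0.82 (permutation p = 0.00034, adjusted p = 0.00102) and a rho of 0.84 (permutation p = 0.001, adjusted p = 0.006). Without WT-Veh RH2 and KO-Nut3 RH6, the libraries farthest from the median of Mog, r was 0.87 for Mobp and 0.64 for Mag. After the group means were taken off, r was 0.92 and 0.73, and within the 6 mice numbered up to RH8 it was 0.99 and 0.96 and within the 6 from RH9 0.90 and 0.74. Mog and Opalin had an r of 0.66 (permutation p = 0.00954, adjusted p = 0.0143) and a rho of 0.68 (permutation p = 0.0188, adjusted p = 0.0281), with 0.79 and 0.61 within the blocks of animal numbers and 0.62 after the group means were taken off. Without RH2 and RH6 its r was 0.34, so that this relation rested largely on those 2 libraries.

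Pdgfra and Cspg4 had an r of 0.80 (permutation p = 0.00186, adjusted p = 0.00372) and a rho of 0.74 (permutation p = 0.0077, adjusted p = 0.0154). It was 0.67 up to RH8 and 0.91 from RH9, 0.74 after the group means were taken off, and 0.60 without KO-Veh RH10 and WT-Veh RH5. Mog and Pdgfra did not keep one relation. Their r was -0.15 (permutation p = 0.62, adjusted p = 0.744) and their rho -0.12 (permutation p = 0.706, adjusted p = 0.734), with -0.43 up to RH8 and 0.95 from RH9, 0.15 after the group means were taken off, and 0.10 without RH2 and RH6. Mog and Gpr17 had an r of 0.05 (permutation p = 0.921, adjusted p = 0.921) and a rho of 0.11 (permutation p = 0.734, adjusted p = 0.734), with -0.16 up to RH8, 0.64 from RH9, 0.33 after the group means were taken off, and 0.46 without RH2 and RH6.

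**Figure D4:**
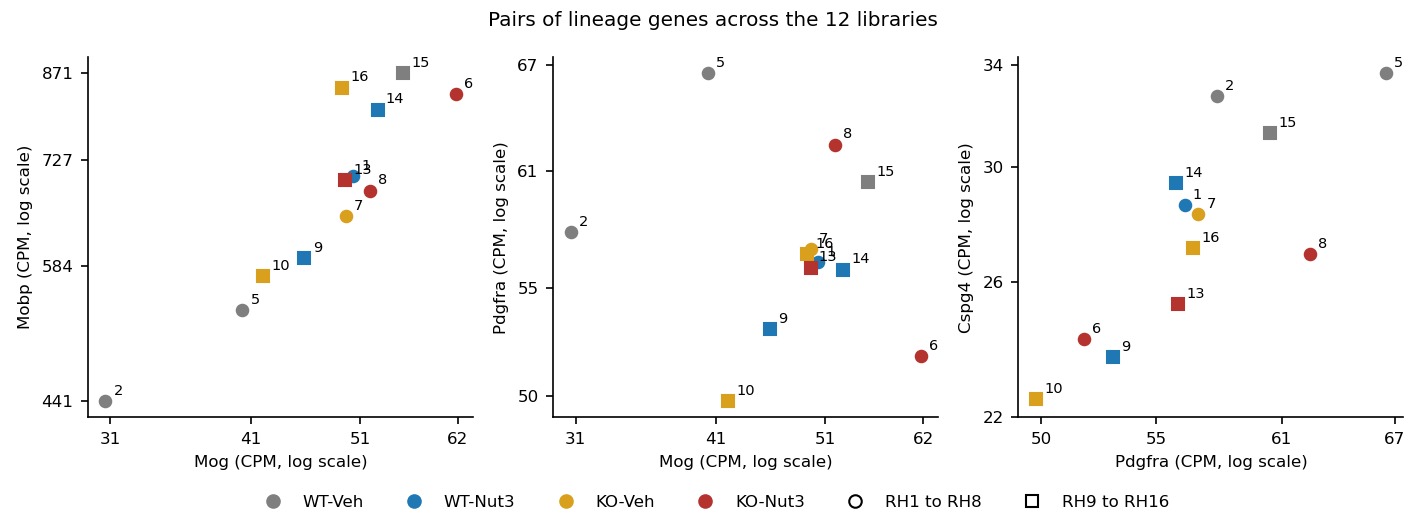
CPM of 3 pairs of genes on log axes, 1 point a library with its animal number, colored by group, circles for mice up to RH8 and squares for mice from RH9. Mobp rises with Mog and Cspg4 with Pdgfra over the libraries, and Pdgfra shows no single trend with Mog.

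For Mog with Mobp and Mag, and for Pdgfra with Cspg4, the pairs whose r was 0.60 to 0.87 without the 2 farthest libraries, the bases before the start of transcription are shown from RefSeq (GRCm38.p6, the build of mm10), so that the regions next to their starts can be set side by side. The search used the 250 bases before the RefSeq start, and only bases before the start in GENCODE are shown. Of the 32 members, 23 had an entry in this table, and Car2, Mbp, Bcas1, Olig1, Fa2h, Gpr17, Trf, Sox10 and Myrf are named only. Capitals mark ACAAAG or ACAATG on either strand, hexamers of the kind that Sox factors such as Sox10 bind, read from 5′ to 3′ on the strand of the gene. The Mog sequence is from chr17:37023399-37023648 on the minus strand, that of Mag from chr7:30914874-30915113 on the same strand, that of Mobp from chr9:120149492-120149706, that of Pdgfra from chr5:75152001-75152250 and that of Cspg4 from chr9:56864854-56865032, these last 3 on the plus strand.
Mog: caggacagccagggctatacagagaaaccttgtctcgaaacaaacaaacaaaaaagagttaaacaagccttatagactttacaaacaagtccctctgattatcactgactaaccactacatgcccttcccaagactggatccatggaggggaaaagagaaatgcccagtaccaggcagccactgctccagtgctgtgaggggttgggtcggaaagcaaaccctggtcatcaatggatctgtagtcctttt
Mobp: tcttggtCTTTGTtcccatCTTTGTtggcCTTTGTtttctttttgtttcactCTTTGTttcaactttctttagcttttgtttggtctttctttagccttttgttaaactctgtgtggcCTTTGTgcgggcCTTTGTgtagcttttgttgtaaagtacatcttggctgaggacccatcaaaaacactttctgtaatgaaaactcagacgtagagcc
Mag: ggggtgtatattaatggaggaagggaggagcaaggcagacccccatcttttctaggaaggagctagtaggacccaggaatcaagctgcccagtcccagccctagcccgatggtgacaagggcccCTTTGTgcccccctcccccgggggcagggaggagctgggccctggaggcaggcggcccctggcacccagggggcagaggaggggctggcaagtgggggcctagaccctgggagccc
Pdgfra: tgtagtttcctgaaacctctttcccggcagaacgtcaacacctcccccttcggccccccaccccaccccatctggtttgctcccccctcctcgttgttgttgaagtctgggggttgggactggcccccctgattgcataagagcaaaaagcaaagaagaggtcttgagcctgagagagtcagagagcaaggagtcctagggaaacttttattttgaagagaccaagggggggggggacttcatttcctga
Cspg4: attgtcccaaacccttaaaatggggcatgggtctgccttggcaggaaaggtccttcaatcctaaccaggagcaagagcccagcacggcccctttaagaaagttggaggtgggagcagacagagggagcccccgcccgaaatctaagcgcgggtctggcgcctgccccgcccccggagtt

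The Mobp sequence held 6 matches and the Mag sequence 1, all read as CTTTGT, and those of Mog, Pdgfra and Cspg4 held 0. At least 1 match was found in 9 of the 23 members (Cnp, Enpp6, Ermn, Gjb1, Hapln2, Mag, Mobp, Olig2 and Opalin) and in 25.2% of the 32851 windows of the same length in the table. A match is a run of letters and no more. For the hexamers searched, Mog differed from Mobp and Mag, and Pdgfra and Cspg4 did not differ. Other hexamers that Sox factors may bind were not searched for, so 0 matches does not mean that a sequence lacks such a site.

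Other genes of mature oligodendrocytes that were not among the 32 leaned the same way. Of 40 such genes 39 were tested, and 36 of them were higher in all Nutlin-3 than in all vehicle libraries, with a median log2 fold change of 0.21, against 49.9% of all genes higher and a median of -0.00. None passed in edgeR, as for 0% of all genes, and 17 had an unadjusted p under 0.05, all higher, against 7.29% of all genes. Gsn, an actin-severing protein of myelinating cells, had a log2 fold change of 0.33 ± 0.08 (SE; unadjusted p = 0.000742, adjusted p = 0.245), and Klk6, a secreted protease, 1.14 ± 0.31 (SE; unadjusted p = 0.00216, adjusted p = 0.306) in edgeR. Klk6 was low in every library, from 0.546 CPM in WT-Nut3 RH9 to 3.77 in KO-Nut3 RH6. Its log2 fold change was 0.94 without WT-Nut3 RH14 and 1.31 without WT-Nut3 RH9. In KO-Nut3 against KO-Veh, Gsn came close to the threshold, at 0.49 ± 0.08 (SE; unadjusted p = 0.000117, adjusted p = 0.0537) in edgeR.

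The 20 other progenitor and precursor genes did not share that lean. Of these 6 were higher and 14 lower in all Nutlin-3 libraries, with a median log2 fold change of -0.03 and none past the threshold in edgeR. Tcf7l2, a Wnt effector of differentiating oligodendrocytes that thalamic neurons also express, had the lowest p of the list, with a log2 fold change of 0.86 ± 0.39 (SE; unadjusted p = 0.0434, adjusted p = 0.666) in edgeR. That value rested on KO-Nut3 RH6, the library highest in thalamic genes, which had 32.7 CPM against 4.75 to 7.33 in the other 11, and without it the log2 fold change was 0.19 ± 0.14 (SE). Bmp4, a ligand that holds progenitors back, had 0.60 ± 0.30 (SE; unadjusted p = 0.0594, adjusted p = 0.702) in edgeR, with fold changes of opposite sign in the genotypes. Bmp4 was at 2.14 ± 0.971 CPM in WT-Veh and 1.97 ± 0.672 in WT-Nut3, and at 1.43 ± 0.363 in KO-Veh and 3.61 ± 0.811 in KO-Nut3 (mean ± SD). Its log2 fold change was -0.11 ± 0.35 (SE; unadjusted p = 0.754, adjusted p = 0.998) in the wild type and 1.32 ± 0.27 (SE; unadjusted p = 0.000746, adjusted p = 0.128) in the knockout in edgeR. The interaction of Bmp4 was 1.44 ± 0.47 (SE; unadjusted p = 0.00853, adjusted p = 0.994) in edgeR. With the choroid plexus score as a covariate the pooled value of Bmp4 was 0.22 ± 0.42 (SE). In KO-Veh against WT-Veh 6 of the 20 genes were higher and none passed in edgeR.

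Genes of myelin lipid and sterol synthesis, which the membrane of the sheath needs, stayed near 0 as a list. Of 25 genes 14 were higher and 11 lower in all Nutlin-3 libraries, with a median log2 fold change of 0.01 and none past the threshold in edgeR. Elovl7, a fatty acid elongase, had a log2 fold change of 0.83 ± 0.22 (SE; unadjusted p = 0.0018, adjusted p = 0.306) in edgeR. It was high in the 3 libraries with the most choroid plexus RNA, at 30.8 CPM in WT-Nut3 RH9, 28.1 in KO-Nut3 RH6 and 36.7 in KO-Nut3 RH13, against 9.64 to 15.9 CPM in the other 9, WT-Nut3 RH1 and RH14 included. With the choroid plexus score as a covariate its log2 fold change was -0.07 ± 0.15 (SE). Scd1, a desaturase, had 0.24 ± 0.09 (SE; unadjusted p = 0.0196, adjusted p = 0.57) in edgeR, with 235 CPM in KO-Nut3 RH6 against 138 to 179 in the other 11, and 0.13 ± 0.05 (SE) without RH6. Of 25 signals and receptors that act on the lineage, 11 were higher and 14 lower, with a median of -0.02. Lingo1, a receptor that restrains myelination, had -0.13 ± 0.06 (SE; unadjusted p = 0.0394, adjusted p = 0.659), and Lrp6, a Wnt co-receptor, 0.12 ± 0.06 (SE; unadjusted p = 0.0512, adjusted p = 0.689) in edgeR. Without WT-Nut3 RH9 the value of Lrp6 was 0.08, and with the choroid plexus score it was -0.06 ± 0.06 (SE) and that of Lingo1 -0.06 ± 0.09 (SE). Of 11 genes of myelinated axons, 6 were higher and 5 lower, with a median of 0.02, led by Scn1a with 0.18 ± 0.10 (SE; unadjusted p = 0.104, adjusted p = 0.784) and Nefh with 0.20 ± 0.14 (SE; unadjusted p = 0.158, adjusted p = 0.823) in edgeR. Both values rested on KO-Nut3 RH6, which had 218 CPM of Scn1a against 124 to 152 in the other 11 libraries and 114 CPM of Nefh against 57.1 to 76.99, and without it they were 0.04 ± 0.04 and 0.02 ± 0.06 (SE).

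Genes of tissue next to the hippocampus moved with some of these libraries. The summed level of 12 choroid plexus genes was 40.9, 42.97 and 32.8 CPM in WT-Veh, 46.4, 4789 and 57.8 in WT-Nut3, 33.97, 45.7 and 55.6 in KO-Veh, and 3577, 387 and 5128 in KO-Nut3, with Ttr, the most abundant, between 3.15 and 4519.7 CPM and Kcnj13 at 0 in WT-Veh RH2 and KO-Veh RH10. KO-Nut3 RH6, RH8 and RH13 and WT-Nut3 RH9 stood above all others. In KO-Nut3 against KO-Veh 12 of 12 choroid plexus genes, 9 of 10 fibroblast genes and 9 of 10 thalamic genes were higher, and 11 of 11 genes of hippocampal neurons were lower. WT-Nut3 RH1 and RH14, which had low choroid plexus sums, were among the 3 highest libraries for the summed members, and WT-Nut3 RH9, with 4789 CPM of choroid plexus genes, was below both. Trf and Car2, the members that the choroid plexus also expresses, were above their means in RH9, by 0.07 and 0.05 on the log2 scale, where the median deviation of the members was -0.17. A fit of all 12 libraries that included a score of the choroid plexus genes gave KO-Nut3 over KO-Veh a log2 fold change of 0.33 for Trf and 0.22 for Car2, in place of 0.45 and 0.26. In that fit 32 of 32 members were higher. The score was 5.53, 2.62 and 5.81 in KO-Nut3 and -0.06, -0.24 and 0.59 in KO-Veh. In the knockout the score and the treatment therefore cannot be told apart. In WT-Nut3 the score was high in RH9 only, at 5.78, against 0.07 in RH1 and 0.57 in RH14. The fit cannot show what part of the fold changes belongs to choroid plexus tissue. The part that choroid plexus tissue had in the members' levels was not tested.

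The summed level of 10 thalamic genes was 198, 190.1 and 188 CPM in WT-Veh, 209, 184 and 205 in WT-Nut3, 186, 182 and 232 in KO-Veh, and 434, 234 and 201 in KO-Nut3, and that of 11 genes of hippocampal neurons 1310.0, 1103 and 1122 CPM in WT-Veh, 1152, 1134 and 1208 in WT-Nut3, 1148, 1148 and 1111 in KO-Veh, and 818, 1085 and 1119 in KO-Nut3. KO-Nut3 RH6, the highest library in 14 members, was the highest in the thalamic genes and the lowest in the hippocampal ones. Rora, the most abundant thalamic gene, ranged from 36.8 to 77.3 CPM and Neurod2, the most abundant hippocampal one, from 143 to 237 CPM. Without RH6, 28 of 32 members were higher under Nutlin-3 in the knockout and 5 had an unadjusted p under 0.05. The sums of 8 astrocyte genes ranged from 4647 to 5794 CPM (most abundant, Slc1a2), and of 8 microglial genes from 269 to 339 CPM (Csf1r). The summed level of 8 endothelial genes (most abundant, Flt1) was 281, 308 and 312 CPM in WT-Veh, 288, 269 and 277 in WT-Nut3, 276, 252 and 288 in KO-Veh, and 303, 329.6 and 304 in KO-Nut3. The 3 KO-Nut3 libraries lay above the 3 KO-Veh libraries in this sum, as they did in the mural and fibroblast sums given above, while WT-Nut3 and WT-Veh overlapped. In KO-Nut3 against KO-Veh 6 of the 8 endothelial genes were higher, with a median log2 fold change of 0.22, near the 0.20 of the members. Of the 8 endothelial genes, 5 had an unadjusted p under 0.05, against 7.6% of all genes, but none passed in edgeR. Their part in the members' fold changes was not tested. The part that the neighboring tissue had in the levels of RH6 was not tested.

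**Figure D5:**
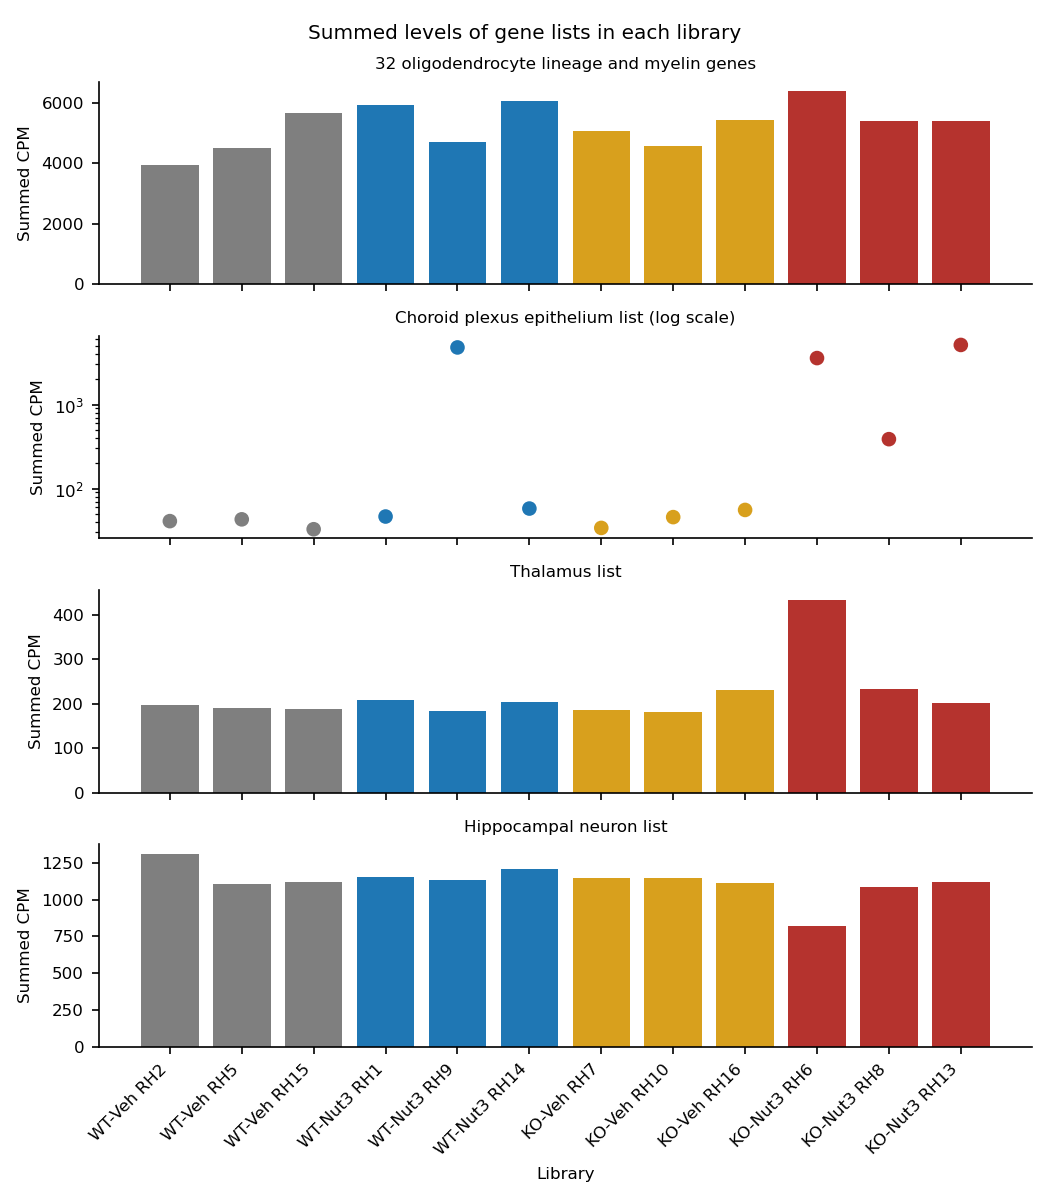
Summed CPM (y axes, bars from 0, with the choroid plexus list as points on a log axis) of the 32 genes, of 12 choroid plexus, 10 thalamic and 11 hippocampal neuron genes in each library (x axis, colored by group). The choroid plexus genes stand out in WT-Nut3 RH9 and the 3 KO-Nut3 libraries, and the thalamic genes in KO-Nut3 RH6. The 32 genes are highest in KO-Nut3 RH6 and in WT-Nut3 RH14 and RH1.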

How the data were processed

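The authors aligned poly(A) RNA-seq reads to mm10 with STAR (version not given in the sources used here) and deposited, for each library, whole-number counts of reads per gene in an unstranded and 2 stranded columns. The unstranded column was used, because reads fell on both strands nearly equally (50.1% to 50.4% on the first strand). Library totals were 21772933 to 25498894 reads, of which 17150820 to 20040482 were counted on genes. Rows without a gene (unmapped, multimapped, no feature, ambiguous) were left out. The labels describe single reads and the methods paired reads. Of the 55421 Ensembl identifiers, 55154 matched a symbol. A count table of the whole series, whose columns name groups and not mice, was not used.

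Genes with more than 20 reads over 12 libraries (22592) were fitted with the quasi-likelihood test of edgeR 4.0.16 (R 4.3.3) with TMM factors and Benjamini-Hochberg adjustment over all genes tested (threshold 0.05), on the 6 libraries of each pair of groups or on all 12 for the interaction and the pooled comparisons. Standard errors are the log2 fold change divided by the square root of F. DESeq2 1.42.0, limma-voom (limma 3.58.1), other normalization and filters, all 12 libraries in one fit, animal number up to RH8 or above as a term, a choroid plexus score (mean log2 CPM of its list) and each library left out were the alternatives. The fits were tested on simulated data. The members, the other gene lists and the tests were chosen with earlier results of these data known. All members were named, and statistics were given for the 3 with the lowest p in each comparison. Of the other lists, genes with the lowest p were named, and some genes that this rule selects are not reported here. Nothing in the labels pairs mice, and with 3 mice a group the p-values rest on the spread between few animals. Figures were drawn with matplotlib 3.10.9.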

Additional observations from a re-analysis of the deposited data

How the results depend on the processing

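Members past the threshold numbered 0 in every comparison in edgeR with the filter of more than 20 reads, and the alternatives with the largest effect were DESeq2 and the weakest filter. DESeq2 called 1 member in KO-Nut3 against KO-Veh, 3 in KO-Nut3 against WT-Veh and 2 in all Nutlin-3 against all vehicle libraries. With every gene of at least 1 read kept (35930 genes), edgeR called 1, 4 and 14 there and 13 in WT-Nut3 against WT-Veh, with the prior degrees of freedom going from 6.02 to 113.5 and the median standard error of the members from 0.103 to 0.0658 in all Nutlin-3 against all vehicle libraries. With 1 library left out, 0 to 1 members were called in KO-Nut3 against KO-Veh and in KO-Nut3 against WT-Veh, and 0 in every other comparison. Over these fits the number of members higher was 26 to 31 in KO-Nut3 against KO-Veh, 28 to 30 in WT-Nut3 against WT-Veh, 29 to 30 in all Nutlin-3 against all vehicle libraries, 16 to 29 in KO-Veh against WT-Veh and 6 to 26 in KO-Nut3 against WT-Nut3.

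All genes called in edgeR are given in a fixed order, which is KO-Veh and then WT-Nut3 and KO-Nut3, each over WT-Veh, then KO-Nut3 over KO-Veh and over WT-Nut3, the interaction, the genotypes pooled and the treatments pooled. They numbered 4, 0, 1, 45, 1, 0, 1 and 0. DESeq2 called 27, 0, 218, 244, 7, 1, 46 and 79. Keeping every gene of at least 1 read gave 272, 249, 416, 544, 38, 291, 239 and 539. The animal number as a term gave 21, 11, 3, 20, 1, 0, 10 and 3, the choroid plexus score 1, 0, 1, 0, 2, 1, 1 and 0, limma-voom 3, 0, 1, 19, 1, 0, 2 and 0, and the 12 libraries in one fit 1, 0, 2, 0 and 1 for the 5 pairs of groups. With 1 library left out the ranges, in that order, were 2 to 11, 0 to 1, 1 to 197, 6 to 266, 0 to 7, 0 to 1, 1 to 10 and 0 to 19.

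The relation of Mog with Pdgfra, r = -0.15, changed sign in mice from RH9 (0.95), after the group means were taken off (0.15) and without the 2 farthest libraries (0.10), and that of Mog with Gpr17 did in mice up to RH8 (-0.16). The cause was not tested. No paired analysis was possible because animal numbers are not shared between groups. Reads limit Pllp, with 40 to 81 a library, more than any other member.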

Other observations

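When each strand was counted alone, Pllp had more reads than in the counts used above, with 43.7, 46.1 and 41.4 CPM in WT-Veh, 61.2, 51.99 and 50.2 in WT-Nut3, 55.2, 44.99 and 44.9 in KO-Veh, and 69.3, 56.9 and 42.2 in KO-Nut3, relative to all reads on genes. Reads on exons shared with Gm45767 are counted for Pllp on this scale, whichever of these genes they came from. The 3 WT-Nut3 libraries lay above the 3 WT-Veh libraries on this scale too, while the KO-Nut3 and KO-Veh libraries overlapped.

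Genes of the white matter axon list were lower in KO-Veh than in WT-Veh in 11 of 11 cases by fold change, with a median log2 fold change of -0.07 and none past the threshold in edgeR. The share of all genes that were lower in this comparison is not given here, so this count was not set against it. The lowest p in the list was that of Cntnap1, the axonal partner of the paranodal junction, with a log2 fold change of -0.20 ± 0.06 (SE; unadjusted p = 0.00654, adjusted p = 0.608), followed by Kcna1, a potassium channel next to the paranode, with -0.11 ± 0.05 (SE; unadjusted p = 0.0479, adjusted p = 0.686) in edgeR. Without WT-Veh RH2 the value of Cntnap1 was -0.14, and without KO-Veh RH10 that of Kcna1 was -0.09.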
